A study of Mus musculus with 2 samples.

Results

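Granins are acidic proteins that condense with peptide hormones in the dense-core granules of neurons and endocrine cells, and prohormone-processing enzymes cut and finish the hormones inside those granules. Prohormone convertases cleave precursors after paired basic residues, a carboxypeptidase removes the basic residues left at the new end, and an amidating enzyme turns a terminal glycine into an amide. Gonadotropin-releasing hormone (GnRH), a decapeptide with an amidated end, is itself made from its precursor in this way, and pituitary gonadotropes store chromogranin A and secretogranin II beside luteinising hormone. The genes described here were Chga, Chgb, Scg2, Scg3, Scg5, Vgf, Pcsk1, Pcsk2, Cpe and Pam, taken as every non-control spot whose gene name in the scanner files was that of a listed gene. They held 13 probes and 22 of the 59305 non-control spots per array, and 10 of the 34797 gene names.

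RNA was measured on 2 mouse arrays of the 1-colour (Cy3) kind, with 1 array per group. The GnRH group was labelled as GT1-7 cells given 50 nM of the peptide for 30 min, and the vehicle group as GT1-7 cells given DMSO for 30 min; both were grown in DMEM with serum and gentamicin. GT1-7 is a line of immortalised mouse hypothalamic neurons, made with a viral oncogene driven by the GnRH promoter, so it stands for 1 line and not for GnRH neurons of an animal. A free-text field of both samples speaks of bradykinin and A549 cells; groups here follow the treatment labels. With 1 array per group no difference had a replicate check and no test was made, so the values describe these arrays only and their small number limits the precision.

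The arrays differed where a response to the peptide is known to begin. Egr1, an immediate-early transcription factor gene, was 354-fold higher in the GnRH array, and Fos, which encodes an AP-1 subunit, was 63.3-fold higher. These sizes depended on the background correction: the log2 difference of Egr1 was 8.47, against 7.52 with normexp correction and 7.44 with none, and that of Fos was 5.98, against 5.30 and 5.26. The receptor gene Gnrhr differed by a log2 value of -0.03. Of the 8 GnRH neuron markers, 3 were well above background on both arrays, Dlx5 at 0.62 ± 0.37, Six3 at -0.06 ± 0.20 and Otx2 at -0.59 ± 0.23 on the log2 scale, of which Dlx5 and Otx2 were dim. Gnrh1, which defines the cell type, missed the background call in both groups, with signals of 10.3 and 8.60 on its probes in the GnRH array and 7.94 and 6.23 in the vehicle array. Of the 6 gonadotrope markers 5 were well above background, with log2 differences from -0.13 to 0.11. In the vehicle array Cga read 80508, Pitx1 48204, Nr5a1 33412 and Gnrhr 14862, where the 75th percentile over probes was 578. Lhb was dim at 71.5, and Fshb missed the call in both groups. Bright gonadotrope markers beside a dark Gnrh1 do not bear out the label. The identity of the cells was not tested, so they are called here by their label only. Measured markers of other cells numbered 3 of 5 for chromaffin cells, 0 of 6 for other pituitary lineages, 3 of 5 for astrocytes and 2 of 5 for fibroblasts. A further 2 markers of other pituitary lineages, 1 of astrocytes and 1 of fibroblasts passed the background call in the GnRH array only. Among these Tbx19, a corticotrope transcription factor gene with 1 probe, read 1048 in the GnRH array and 8.08 in the vehicle array, at least 68.6-fold higher against the lowest vehicle signal that passed the call; Pomc, the hormone precursor gene of those cells, missed the call in both groups. The part of these markers in the values below was not tested. In RNA of whole cultures, fewer cells of a type and less RNA per cell cannot be told apart.

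None of the 10 genes stood apart by 2-fold. All were well above background in both groups. Of the 10, 0 reached 2-fold higher and 0 reached 2-fold lower with the peptide, against 0.308% and 0.133% of the 21105 genes measured on both arrays. At 1.5-fold the count was 0 as well, against 1.19% of all genes higher and 0.872% lower, and with so small a background a count of 0 among 10 genes is nothing particular to them. Their median log2 difference (GnRH minus vehicle) was -0.01, beside -0.01 over all genes. Differences ran from -0.38 for Pam to 0.28 for Vgf, and the other 8 genes lay between -0.12 and 0.05. Each value carries the scanner software's error estimate, about 0.20 for a gene with a single spot. Of the 10 differences 8 were smaller than their own error, while those of Vgf and Pam were larger. Most measured genes lay within about that size too. A difference of 0.20 (Insm1) was above those of 90.9% of genes, and -0.20 (Cpm) below those of 91.2%. The count of 8 is thus nothing particular to these genes.

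**Figure D1:**
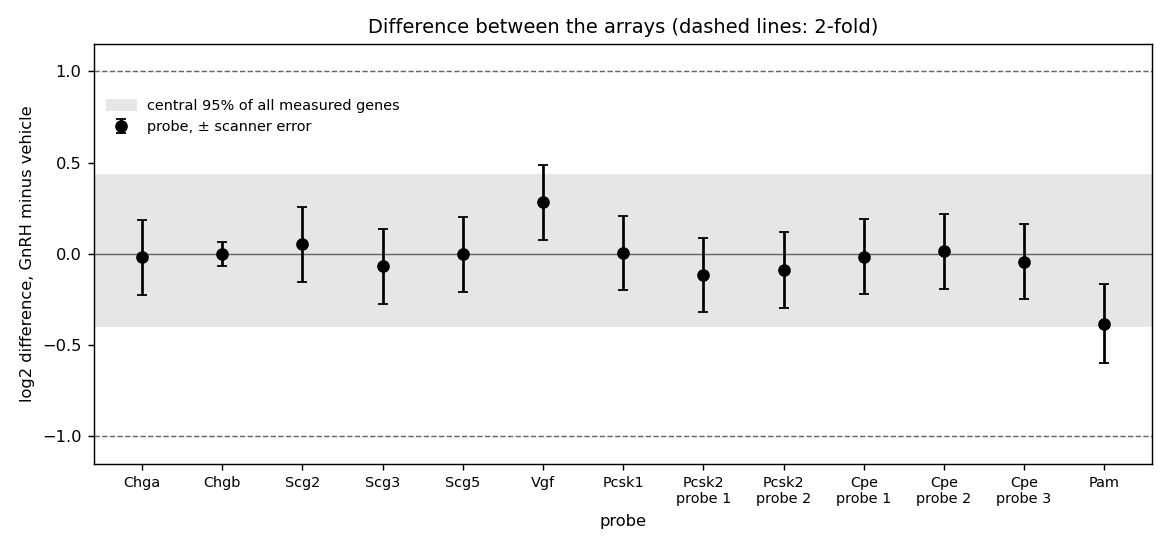
Log2 difference between the arrays (GnRH minus vehicle, vertical axis) for each of the 13 probes (horizontal axis); bars are the scanner software's error, the grey band is the central 95% of all 21105 measured genes (-0.39 to 0.43), and dashed lines mark 2-fold. Vgf at 0.28 and Pam at -0.38 are the highest and lowest points, and every point lies inside the band.

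The first 30 bases of the 60-base probes of Vgf and Pam are printed because these genes lay at the ends of the range. Those of Pcsk2 and Cpe are printed because several probes read the same transcript. Coordinates are those of the files (build mm9), and a probe listed from its higher to its lower coordinate is given here with a minus sign. For the pair of neighbouring Cpe probes, capitals mark the 8 bases they share, and the upstream probe is shown by its last 30 bases.
Vgf, chr5:137509153-137509212 (+): ctctgttgtaaatacccctcacggaggaaa
Pam, chr1:99718052-99718111 (-): gtttagctcatttacatttggagacccttt
Pcsk2, chr2:143639649-143639708 (+): gacacaagcaatcccagcctggtctcaagc
Pcsk2, chr2:143641856-143641915 (+): ccctgagtctgatgcaagagacagtcattt
Cpe, chr8:67071401-67071460 (-): gttaatgccacttcagagtttgGGGTTTTG
Cpe, chr8:67071349-67071408 (-): GGGTTTTGtcttgattgtagattggcccag
Cpe, chr8:67085401-67085460 (-): agagactctcaaaagctactgggaagataa

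Signals below are the scanner software's processed intensities, before scaling between arrays. The 75th percentile over all probes was 541 in the GnRH array and 578 in the vehicle array, so a gene with equal scaled values reads slightly lower in the GnRH array. Differences are given after dividing by that percentile.

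Both chromogranin genes lay within the scanner error. Chga encodes chromogranin A, a granule matrix protein and precursor of peptides such as vasostatin and catestatin; its probe (chr12:103803083-103803142) read 41179 in the GnRH array and 44595 in the vehicle array, a log2 difference of -0.02 ± 0.20 (scanner error). Chgb, the chromogranin B gene, was the best measured, because its probe (chr2:132620703-132620762) was printed 10 times on each array. Its spots ran from 28004 to 30650 with a median of 29431 in the GnRH array, and from 29369 to 33517 with a median of 31201 in the vehicle array. These ranges overlapped before scaling. After scaling, the 10 paired spot differences averaged -0.002 ± 0.035 (SD, n = 10 spots of 1 probe), from -0.06 to 0.05, with 6 above 0 and 4 below. This spread is that of spots on a slide and holds no variation between cultures.

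**Figure D2:**
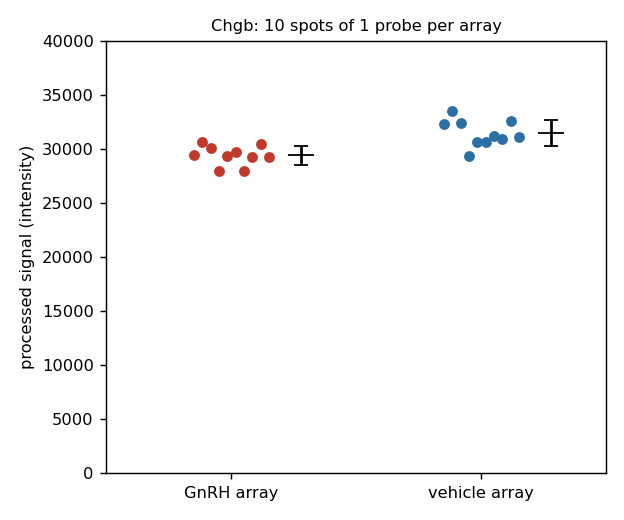
Processed signal (intensity, vertical axis from 0) of the 10 spots of the Chgb probe in the GnRH array (left) and the vehicle array (right), before scaling; the black bar beside each set is the mean ± SD over spots, 29448 ± 899 and 31493 ± 1213. The sets overlap, and the gap between their means is close to that between the arrays' 75th percentiles.

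The secretogranins gave small differences of both signs. Scg2, which encodes secretogranin II, the precursor of secretoneurin, read 18468 in the GnRH array and 19024 in the vehicle array (chr1:79431323-79431382), a log2 difference of 0.05 ± 0.20. Scg3 encodes secretogranin III, which binds chromogranin A and cholesterol-rich granule membrane; it read 28162 in the GnRH array and 31545 in the vehicle array (chr9:75491320-75491379), a difference of -0.07 ± 0.20. Scg5 encodes the 7B2 protein, a chaperone and inhibitor of the convertase encoded by Pcsk2, and read 42598 in the GnRH array and 45598 in the vehicle array (chr2:113616781-113616840), a difference of -0.003 ± 0.204. All of these lay within the scanner error.

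Vgf was the granin-family gene with the highest value relative to vehicle. It encodes the precursor of several secreted peptides, among them TLQP-21, and was first found as a gene induced by nerve growth factor. Its single spot read 20625 in the GnRH array and 18112 in the vehicle array, the only probe of the 13 with the higher raw signal in the GnRH array. After scaling it was 1.22-fold higher, a log2 difference of 0.28 ± 0.20, above those of 94.5% of all measured genes. For comparison, the 32 probes printed 10 times with a mean signal of at least 10000, that of Chgb among them, gave single-spot differences with a pooled SD of 0.04, and their means ran from -0.12 to 0.23. Spots around the Vgf spot had a median log2 difference of -0.09. The cause of the Vgf difference was not tested. With 1 spot per array and 1 probe, this difference has no repeat measurement.

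**Figure D3:**
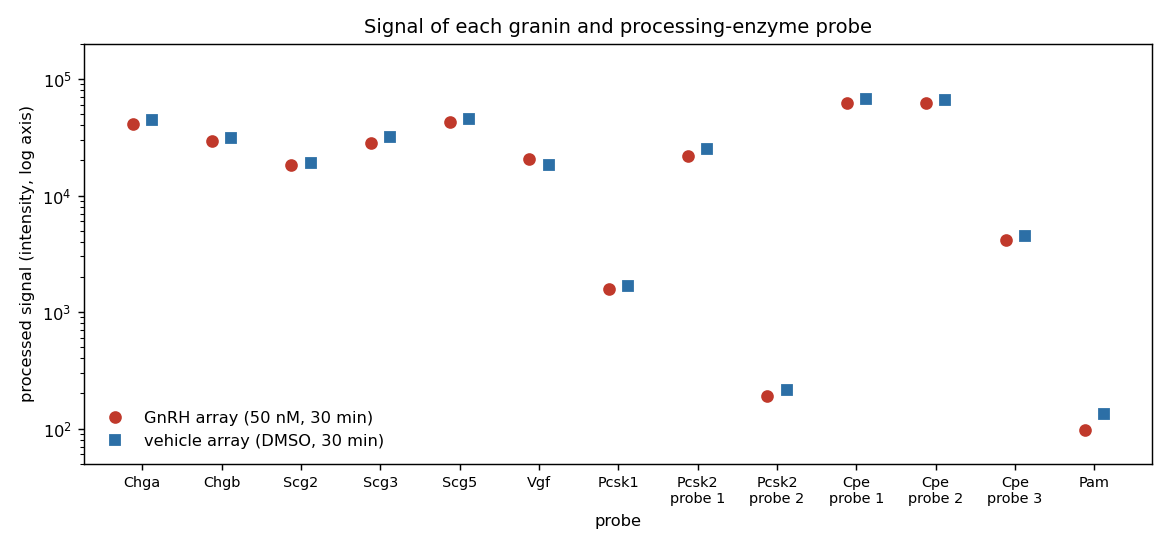
Processed signal (intensity, log axis) of each of the 13 probes in the GnRH array (red circles, left of each pair) and the vehicle array (blue squares), before scaling between arrays. In 12 probes the vehicle point is slightly higher, as is the array's 75th percentile (541 for GnRH and 578 for vehicle), and Vgf alone has the higher GnRH point.

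Both convertase genes lay within the scanner error. Pcsk1 encodes PC1/3, which makes the first cuts in many precursors, and read 1570 in the GnRH array and 1672 in the vehicle array (chr13:75269727-75269786), a log2 difference of 0.004 ± 0.204. Pcsk2 encodes PC2, which cuts further to smaller peptides and needs 7B2 to mature. Its brighter probe read 21678 in the GnRH array and 25088 in the vehicle array, a difference of -0.12 ± 0.20. The other Pcsk2 probe, which starts 2207 bases further along the chromosome, read 190 in the GnRH array and 215 in the vehicle array, a difference of -0.09 ± 0.21. The probes of Pcsk2 thus differed from each other by 0.03.

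Cpe encodes carboxypeptidase E, which trims basic residues after convertase cleavage. Its neighbouring probes read 62029 and 61991 in the GnRH array and 66963 and 65595 in the vehicle array, with log2 differences of -0.02 ± 0.20 and 0.01 ± 0.20. The probe that starts 14052 bases away from the first of these read 4121 in the GnRH array and 4531 in the vehicle array, a difference of -0.04 ± 0.20. All Cpe probes lay within 0.06 of each other, less than the error of any of them, although the neighbouring pair shares 8 bases and so is not fully independent.

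Pam encodes peptidylglycine alpha-amidating monooxygenase, the enzyme that amidates GnRH and many other neuropeptides. It had 1 probe, which read 96.6 in the GnRH array and 135 in the vehicle array, on 1 spot per array. After scaling, Pam was 1.30-fold lower with the peptide, a log2 difference of -0.38 ± 0.22, below those of 97.4% of all measured genes. Among the 37 probes printed 10 times with mean signals of 50 to 200, single spots varied by 0.16 (pooled SD of a log2 difference). The SD of 1 probe reached 0.29, and the means of these probes ran from -0.25 to 0.68. With no background correction the Pam difference was -0.20 and with normexp correction -0.22, about the size of its error. Spots around it had a median of 0.01.

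**Figure D4:**
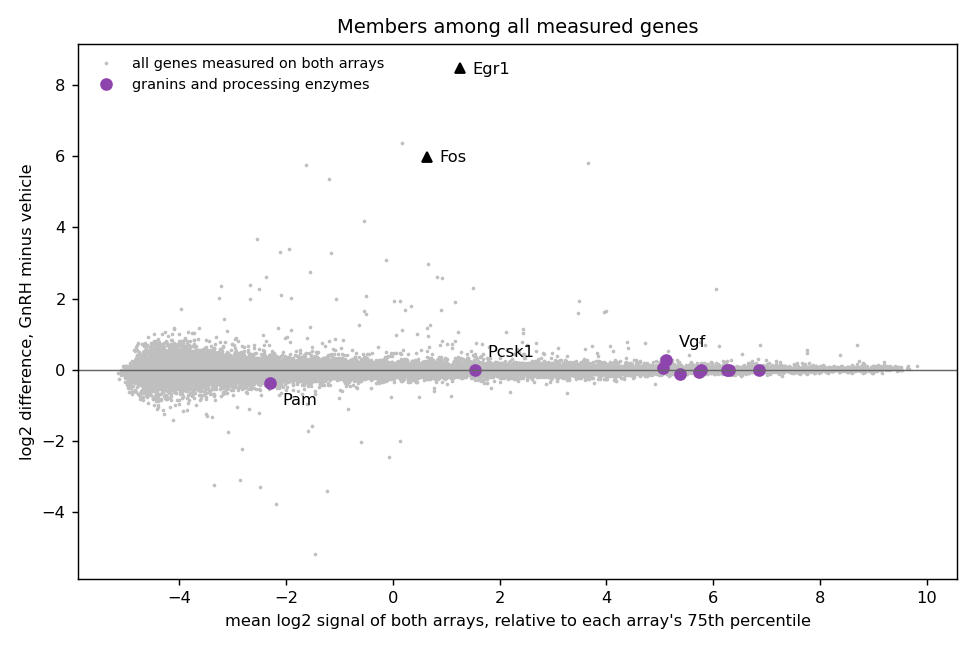
Log2 difference between the arrays (GnRH minus vehicle, vertical axis) against the mean log2 signal of both arrays relative to each array's 75th percentile (horizontal axis) for the 21105 measured genes (grey) and the 10 granin and processing-enzyme genes (purple); triangles are Egr1 and Fos. Most purple points lie near 0 at high signal, with Vgf at 0.28 and the dim gene Pam at -0.38.

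The start sites of several of these genes carry sequences that transcription factors of the early response are known to bind. CREB binds the cyclic AMP response element (CRE, TGACGTCA), and EGR proteins bind GC-rich sites such as GCGGGGGCG. In a RefSeq table (build GRCm38.p6) of promoters from 250 bases before to 50 after each start site, 8 of the 10 genes matched by symbol, all but Vgf and Cpe. On either strand, the CRE stood in 3 of these 8 genes, against 1.79% of 32851 promoters in the table. It lay 72 bases before the start site in Chgb, 68 in Scg2 and 78 in Pcsk1. The EGR sequence stood in 2 of the 8, Chgb and Pcsk2, against 2.91% of promoters, and AP-1 sites (TGANTCA) in 0 of 8, against 7.81%. The core TGACG, which every CRE holds, stood in 7 of 8, all but Pam, against 20.8% of promoters. Stretches of 100 bases are printed for the genes with a CRE, from base -100 to -1, and for Pcsk2, which had 3 EGR matches, from -180 to -81; capitals mark each CRE and each EGR match, and the EGR match of Chgb lies on the opposite strand, from -49 to -41.
Chgb, chr2:132781542-132781641 (+): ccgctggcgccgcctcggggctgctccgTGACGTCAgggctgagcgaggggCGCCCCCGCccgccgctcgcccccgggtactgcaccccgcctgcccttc
Scg2, chr1:79440027-79440126 (-): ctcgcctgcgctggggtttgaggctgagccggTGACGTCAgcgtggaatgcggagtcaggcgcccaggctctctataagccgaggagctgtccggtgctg
Pcsk1, chr13:75089757-75089856 (+): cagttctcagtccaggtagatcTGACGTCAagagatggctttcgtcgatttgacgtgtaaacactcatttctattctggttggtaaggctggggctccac
Pcsk2, chr2:143545953-143546052 (+): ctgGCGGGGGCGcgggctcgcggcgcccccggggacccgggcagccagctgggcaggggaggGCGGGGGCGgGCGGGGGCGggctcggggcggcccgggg

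The 3 genes with a full CRE differed by -0.002 (Chgb), 0.05 (Scg2) and 0.004 (Pcsk1) on the log2 scale, and Pcsk2, with its EGR matches, by -0.12, all within the scanner error. A match of letters is a description and shows no binding.

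Other genes of the pathway, in 5 lists with 7, 14, 12, 23 and 11 measured genes, held 0 past 2-fold in either direction. Over all 21105 measured genes 0.308% were at least 2-fold higher and 0.133% lower, so this count is nothing particular to the lists. The 7 genes of other convertases and their inhibitor measured on both arrays had a median log2 difference of -0.03, beside -0.01 over all genes. Furin, a convertase of the constitutive pathway, differed by 0.03 ± 0.20, and Pcsk1n, which encodes the PC1/3 inhibitor proSAAS, by -0.03 ± 0.20. Pcsk4 had the value furthest from 0, at -0.18 ± 0.20.

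Of 17 other enzymes that trim, cyclise or break down peptides, 14 were measured, with a median of -0.03, 5 above 0 and 9 below. Qpct, which encodes the glutaminyl cyclase that forms the blocked first residue of GnRH, read 551 in the GnRH array and 503 in the vehicle array, a log2 difference of 0.23 ± 0.20. Carboxypeptidase D (Cpd) differed by 0.04 ± 0.20. Carboxypeptidase M (Cpm) was at -0.20 ± 0.21 and the endothelin-converting enzyme gene Ece1 at -0.19 ± 0.20, both within their error.

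Peptide precursor genes were mostly dark. Of 28, 12 were well above background on both arrays and 16 on neither, and among those 16 were Gnrh1, Pomc, Npy, Sst and Penk. The median of the 12 was 0.01, with 6 above 0 and 6 below. Pmch, the precursor gene of melanin-concentrating hormone, was highest at 0.34 ± 0.28, from dim signals of 41.4 in the GnRH array and 34.8 in the vehicle array. Nmu, the neuromedin U gene, was at 0.20 ± 0.21 and Agrp, the agouti-related peptide gene, lowest at -0.15 ± 0.21. Kiss1, the kisspeptin gene, is named outside the naming rule given below and after its values were seen. It read 10892 in the GnRH array and 10823 in the vehicle array, a log2 difference of 0.10 ± 0.20.

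Granule membrane and exocytosis genes had a median of -0.04 over 23 of 24 measured, with 10 above 0 and 13 below. Ptprn, which encodes the granule membrane protein IA-2, differed by -0.07 ± 0.20. The vesicular monoamine transporter genes had opposite signs, Slc18a1 at 0.36 ± 0.22 with signals of 116 in the GnRH array and 96.6 in the vehicle array, and Slc18a2 at -0.30 ± 0.21 with signals of 106.6 in the GnRH array and 140.4 in the vehicle array. Syt4, a granule synaptotagmin gene, was at 0.21 ± 0.20. None of these reached 1.5-fold, and 97.9% of all measured genes did not.

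Transcriptional regulators linked to granin and convertase genes had the highest list median, 0.11 over 11 measured genes. Of these 8 lay above 0, and over all genes 47.5% did. This list, like the others, was chosen with earlier results of these data known, so its rank is a description only. Rest, which encodes a repressor of neuronal genes including granin genes, was 1.56-fold higher (0.64 ± 0.23), the only gene of the 5 lists past 1.5-fold. Its signals were 98.4 in the GnRH array and 67.4 in the vehicle array. Over all genes 1.19% were at least 1.5-fold higher and 0.872% lower, so 1 such gene is nothing particular to the lists. Rest was at 0.40 with normexp and 0.38 with no background correction, below 1.5-fold. Its other probe did not pass the background call, with signals of 11.2 for GnRH and 12.5 for vehicle. Neurod1, a neuroendocrine transcription factor gene, gave 0.33 ± 0.20 and 0.40 ± 0.20 on its separate probes, and Crem, a cyclic AMP response modulator gene, 0.34 ± 0.21 and 0.37 ± 0.23 on those well above background. Nhlh1 was at 0.35 ± 0.21 on its brighter probe and 0.14 ± 0.23 on the other, Insm1, a zinc-finger factor of endocrine cells, at 0.20 ± 0.20, and Creb1 at -0.03 ± 0.21.

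**Figure D5:**
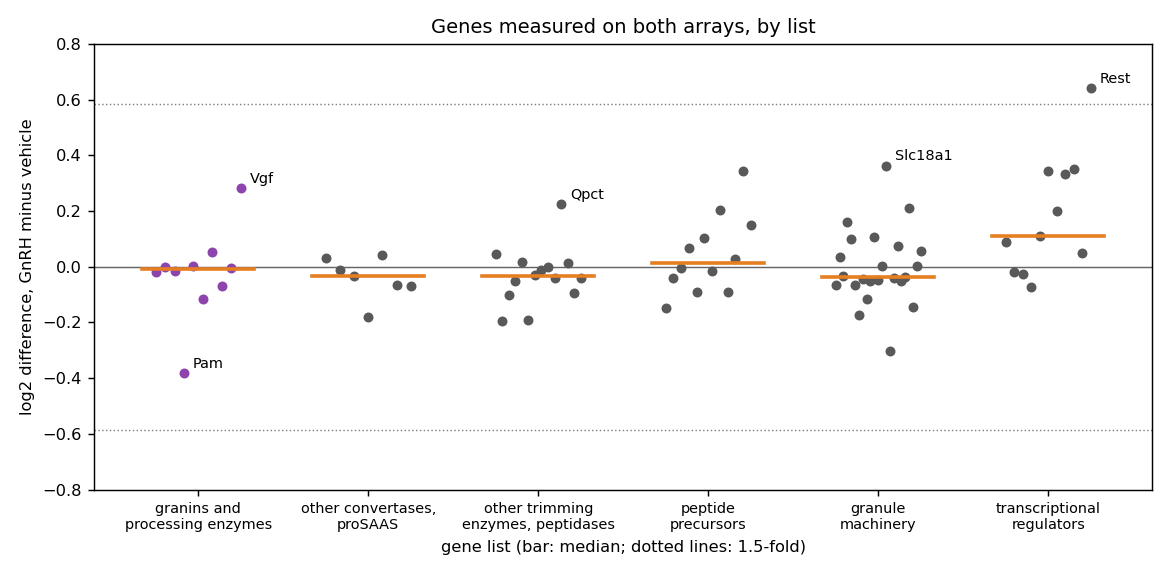
Log2 difference between the arrays (GnRH minus vehicle, vertical axis) of each gene measured on both arrays, by gene list (horizontal axis); orange bars are list medians and dotted lines mark 1.5-fold. Medians run from -0.04 for granule machinery to 0.11 for transcriptional regulators, and only Rest at 0.64 passes a dotted line.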

How the data were processed

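Values were the linear spot intensity of the deposited scanner files. Feature Extraction had removed background and a spatial trend within each array (version 10.7.1.1 per the file headers; the submitters' processing notes give 9.5.1.1). The authors' deposited value table, also linear intensity, was an alternative. The flags of the scanner software were used as deposited. Control and outlier spots (94 on the GnRH array, 121 on the vehicle array) were left out, log2 signals of a probe's spots averaged, and each array's 75th percentile over probes subtracted. A probe passed the background call where 50% or more of its spots carried the software's mark for it. A gene took its brightest such probe on both arrays. Scanner error combines both arrays' estimates, with spots taken as independent, and mostly reflects a multiplicative setting of 0.1.

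The members, lists and rules were chosen with earlier results of these data known. Named were all members, 11 fixed genes, and genes of each list past 1.5-fold or up to 4 with the largest differences. Steps were tested on simulated data. RefSeq promoters were searched on both strands. Python 3.11.15 and limma 3.58.1 (normexp) were used. The exons and untranslated regions that probes lie in are not assigned here. A gene of the lists is not reported here.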

Additional observations from a re-analysis of the deposited data

How the results depend on the processing

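Changing the scaling, background correction, source of values, filters, names or probe rule in 14 ways gave 140 member values. Of these 0 moved by more than the scanner error, which is mostly a fixed setting. Changes of filter, probe rule or names cannot alter a bright gene with 1 probe: Chga stayed at -0.02 under them. The 140 values are thus not separate checks. The members' median stayed between -0.04 and -0.004, and no member value exceeded 0.41 in size, so none reached 1.5-fold. Vgf ran from 0.25 to 0.29 and Pam from -0.41 to -0.20. Signs of the members nearest 0 (Chgb, Scg5, Pcsk1, Cpe) differed between settings. Of 976 values of 70 other genes 12 moved by more than the error. With no filter on dim probes the trimming enzymes gave 2 genes at least 2-fold higher and the peptide precursors 1 lower, from signals not above background; at 1.5-fold the regulators gave 1 higher (Rest). The 65 genes at least 2-fold higher over the whole array became 1252 with no filter, 36 with the stricter filter, 549 with the looser background call, 251 at 1.5-fold and 39 at 3-fold. The 28 lower became 756, 7, 309, 184 and 13 under these, 12 with normexp and 12 with no background correction. They became 14 without 3 areas of the array (600 spots, no member's among them) where neighbouring spots differed together. The higher genes numbered 45 with normexp, 46 with no background correction and 45 without these areas. The cause of these moves was not tested beyond what the setting itself fixes. No paired analysis was possible because each group has 1 array. Of the 10 genes, Pam had the lowest signal.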
